A study of Mus musculus with 474 samples.

Results

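The protein-coding genes of the cytosolic ribosome were followed in single daughters of mouse haematopoietic stem cells. Members were chosen by symbol: Rpl or Rps followed by a digit, or Rpsa, Rplp0, Rplp1 or Rplp2, without the Rps6k kinases and without pseudogenes. This gave 86 genes of the 55450 in the count tables, 52 named for the large (60S) subunit and 34 for the small (40S) subunit. The naming rule also takes in Rps19bp1, which encodes a binding partner of Rps19 and not a ribosomal protein, and it leaves out genes such as Fau and Rack1, which encode ribosomal proteins under other names.

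Each ribosome holds 1 copy of most of these proteins, and their messenger RNAs are among the most abundant of growing cells. Most of these messenger RNAs begin with a C and a run of pyrimidines, the 5′ terminal oligopyrimidine (TOP) motif, through which mTORC1 and Larp1 set their translation together with that of elongation factors and poly(A)-binding protein. Haematopoietic stem cells are known for a low rate of protein synthesis, and loss of 1 copy of single ribosomal protein genes such as Rps19, Rpl5 or Rpl11 causes Diamond-Blackfan anaemia in people.

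The stem cells came from the bone marrow of wild-type male C57BL/6JRj mice aged 12 to 19 weeks, and no agent or mutation separates any of the cells. Their first division in culture was recorded by time-lapse imaging, each daughter was picked by micromanipulator, and poly(A) RNA was sequenced by Smart-seq2, which reads full-length transcripts of 1 cell per well without molecular identifiers. The deposited metadata call 1 daughter of a division "high", having received more lysosomes, and the other "low". Of all cells, 85.7% belonged to divisions with both daughters sequenced, and 68 cells had no sequenced sister. The 5 experiments of sequencing run 4 held 12, 27, 33, 38 and 26 such divisions (experiments 69, 74, 75, 76 and 77), and the 4 experiments of run 5 held 20, 17, 11 and 19 (experiments 60, 68, 72 and 73). Whether experiments used separate mice is not stated, so p-values measure the spread between these experiments or divisions.

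Cells had between 76735 and 2444858 gene counts (median 846198). The label of the cells was checked against 8 stem cell markers, of which Mecom was counted in 100% of cells, Hlf in 99.8% and Hoxb5 in none. Over the 8 markers the median was 89.3% of cells. The lowest of the others was counted in only 28.7%, at a median of 0 CPM. Of the 6 myeloid markers Mpo and Ctsg were at 0, while Prtn3 was counted in 74.1% of cells (median 12.6 CPM), Csf3r in 50.2%, Ms4a3 in 6.96% and Elane in 0.422%. The summed level of the myeloid list lay between 14 and 44.2 counts per 1000000 gene counts (CPM) over experiments, against 1523 to 3156 CPM for the stem cell list. The stem cell sum came in large part from Mecom, at a median of 1345 CPM over cells. The summed erythroid level of 336.8 to 696.0 CPM came almost wholly from Car2, and the summed megakaryocyte level was 25.2 to 89.6 CPM, while the summed lymphoid level was 0.0 CPM by experiment medians. In 5 cells the synthetic ERCC spike-in RNAs reached more than 50% of the gene counts.

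Starts of these genes are shown first because the TOP motif lies there. Promoters of 66 members were found in the RefSeq table for GRCm38.p6, each covering 250 bases before to 50 after an annotated start, 300 in all. The first 5 bases from the start were C followed by 4 pyrimidines in 14 of 66 members (21.2%) and in 3.01% of the 27025 genes of that table. The pyrimidine stretch CTCTTTC, read on the gene's own strand from 10 bases before to 20 after the start, occurred in 5 members (7.58%) against 0.403% of all genes, and CTTTCC, which overlaps it, in 11 members (16.7%) against 1.52%. Searched on both strands over all 300 bases, CTCTTTC was held by 18 members (27.3%) against 9.28% of all genes, the ETS-type core CCGGAAG by 26 (39.4%) against 9.93%, and the E-box CACGTG by 6 (9.09%) against 8.09%. A match is a description of letters and not a binding site. The 5 members with CTCTTTC near the start are printed from 30 bases before the start to 20 bases from it, 5′ to 3′, with CTCTTTC and CTTTCC in capitals.
Rpl18, chr7:45718041-45718090, plus strand: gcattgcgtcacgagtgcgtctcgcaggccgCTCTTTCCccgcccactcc
Rpl28, chr7:4792935-4792984, plus strand: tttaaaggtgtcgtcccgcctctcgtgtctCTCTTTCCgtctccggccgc
Rpl35, chr2:39005112-39005161, minus strand: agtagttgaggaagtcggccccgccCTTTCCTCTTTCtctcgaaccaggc
Rpl35a, chr16:33056452-33056501, plus strand: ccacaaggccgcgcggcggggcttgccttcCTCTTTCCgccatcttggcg
Rps26, chr10:128626487-128626536, minus strand: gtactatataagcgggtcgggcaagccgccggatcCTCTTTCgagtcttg
In Rpl28, Rpl35 and Rpl35a CTCTTTC begins at the annotated start itself, and in Rpl35 it overlaps by 1 base a CTTTCC before it.

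Members that have near copies matter for what the counts can show. Rps27, Rps27l and Rps27rt encode forms of the same 40S protein, and Rps27l is a p53 target. Their coding sequences, from GENCODE release M21 without the stop codon, are equally long. The one of Rps27rt (chr9:114982366-114982739, minus strand) differs from Rps27 at 0 bases, and Rps27l differs from Rps27 at 60 bases (76.2% identity). Capitals mark bases of Rps27l that differ from Rps27.
Rps27, chr3:90212522-90213651, minus strand: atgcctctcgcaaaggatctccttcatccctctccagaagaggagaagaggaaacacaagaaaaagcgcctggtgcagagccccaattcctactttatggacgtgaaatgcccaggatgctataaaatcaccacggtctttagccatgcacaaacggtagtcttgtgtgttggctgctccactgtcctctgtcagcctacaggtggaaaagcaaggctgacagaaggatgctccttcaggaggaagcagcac
Rps27l, chr9:66946086-66949516, plus strand: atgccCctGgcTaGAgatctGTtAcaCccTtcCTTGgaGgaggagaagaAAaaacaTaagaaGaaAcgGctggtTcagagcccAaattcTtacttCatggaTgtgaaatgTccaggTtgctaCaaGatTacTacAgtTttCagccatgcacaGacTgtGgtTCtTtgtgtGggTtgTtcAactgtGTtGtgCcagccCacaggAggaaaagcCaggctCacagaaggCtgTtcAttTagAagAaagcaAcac
Rpl36a (chrX:134585654-134588062) and Rpl36al (chr12:69182731-69184083), a pair of 60S genes, differ at 39 coding bases (87.7% identity). Rps27 stood at a median of 183.4 CPM and Rps27l at 146.9 CPM, both with a count in every cell. Rps27rt, identical to Rps27 in coding sequence, was listed at 0 in all cells. Rpl36a stood at 229.2 CPM and Rpl36al at 4.86 CPM. How reads that match more than 1 gene were counted is not given in the sources used here.

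Of the 86 members, 80 had a count in at least 1 cell, 76 in at least 20% of cells and 72 in every cell. The 6 listed at 0 everywhere were Rpl10l, Rpl13, Rpl35, Rpl35a, Rpl7l1 and Rps27rt. A count of 0 in all cells allows a share of cells with a count of up to 0.633%. Rpl24 had a count in 0.211% of cells, Rpl39l in 0.844%, Rpl3l in 3.38% and Rps10 in 5.70%. Rpl13, Rpl35, Rpl35a, Rpl24 and Rps10 encode core subunits that every ribosome carries, so these values are given as listed and not as absence of the RNA. By annotation, 66.2% of the exon bases of Rpl35 lie within Wdr38 or Arpc5l on the opposite strand, 47% of those of Rpl24 within Gm28037 and 28.7% of those of Rps10 within RPS10-NUDT3 or Gm15420, but Rpl35a overlaps no gene. Of the 50-base words of their transcripts, 95.1% for Rpl35, 92.4% for Rps10, 81.7% for Rpl24, 80.3% for Rpl13 and 54.5% for Rpl35a also occur in another gene. The median of such sharing was 58.7% over the 76 well detected members and 67.4% over the other 10. Rps27, with 98.6% shared, was counted in every cell. Pseudogenes named after 60 of the members held 0.00841% of gene counts. Adding them to their parents raised the level of the 76 well detected members at most 1.05-fold. Rps10, outside these 76, went from a median of 0 to 11.7 CPM.

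**Figure D1:**
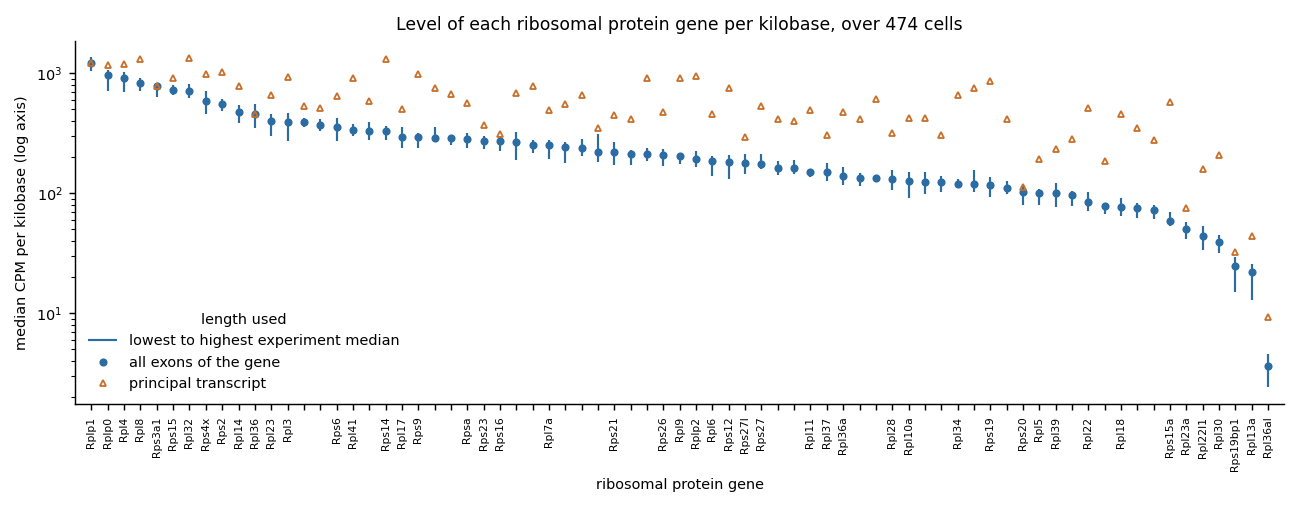
Median CPM per kilobase (log axis) of 73 members with a count in at least 20% of cells, those described in the text named on the axis, over all cells, with length taken over all exons (filled circles, lines from the lowest to the highest experiment median) or from the principal transcript (triangles). Rplp1 leads at 1213 per kilobase of exons and Rpl36al is last at 3.59, and triangles sit at or above the circles.

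Per kilobase of all annotated exons, the highest members included Rplp1 (1213 CPM per kilobase), Rplp0 (962.0), Rpl4 (915.2), Rpl8 (826.8), Rps3a1 (781.0), Rps15 (720.0) and Rpl32 (715.5). Rplp1 and Rplp0 belong to the acidic stalk that recruits elongation factors, to which Rplp2 also belongs, which stood at 399.8 CPM before division by length. Experiment medians of Rplp1 ran from 1044 to 1363 per kilobase and those of Rplp0 from 716.4 to 1060, so the first and second place overlap between experiments, as do Rplp0 and Rpl4. The lowest included Rpl36al (3.59), Rpl13a (21.8), Rps19bp1 (24.8), Rpl30 (39.1), Rpl22l1 (43.8), Rpl23a (50.1) and Rps15a (58.9). Rpl36al ranged only from 2.40 to 4.57 over experiments and lay below every other member in each of them. Rpl13a ranged from 12.8 to 25.8 and Rps19bp1 from 15 to 29.6, which overlap. Rpl13a is a core subunit, and 35.4% of its exon bases lie within another gene.

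The order depends on the length used. With the principal transcript the median level rose from 205.8 to 515.1 CPM per kilobase, Rpl32 moved from 715.5 to 1333 and Rps15a moved from 58.9 to 576.9, while Rpl36al (9.24), Rps19bp1 (32.1) and Rpl13a (44.1) stayed among the last 4. The 31 members of the 40S subunit had a median of 253.6 CPM per kilobase of exons and the 44 of the 60S subunit 174.3, and 649.9 against 467.9 with the principal transcript.

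Together the members took a median of 3.65% of a cell's gene counts, from 0.940% to 9.20%. Experiment medians ran from 3.02% in experiment 60 to 3.88% in experiment 73, with 3.08% in experiment 72, 3.52% in 68, 3.64% in 69, 3.66% in 75, 3.74% in 76, 3.77% in 74 and 3.85% in 77. The cells of every experiment overlapped those of every other. The share lay below 2% in 8 cells, above 6% in 8 and between these values in the others. The highest cell, at 9.20%, had only 142693 counts and spike-ins at 56.3% of gene counts, and the lowest, at 0.940%, had 1099513. The ratio of 60S to 40S counts varied little, from a median of 1.15 in experiment 73 to 1.23 in experiment 75.

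**Figure D2:**
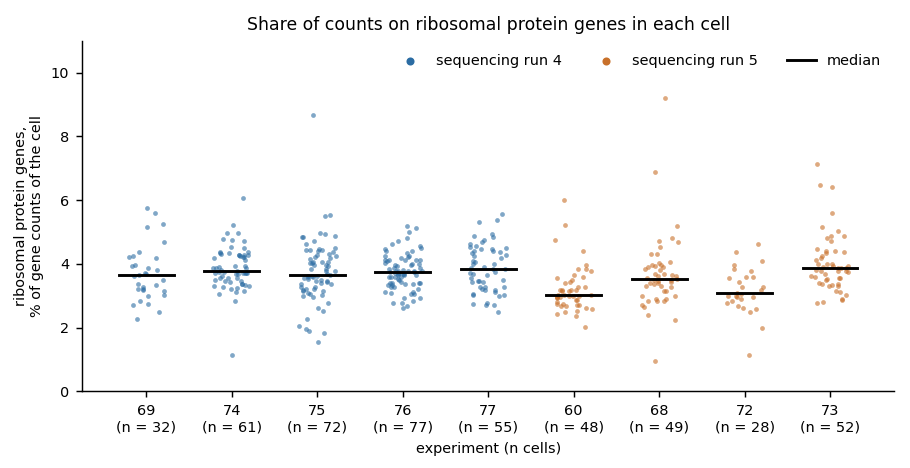
Share of gene counts on the members (percent, linear axis) in each cell, by experiment, coloured by sequencing run, with the median as a bar. Medians lie between 3.02% and 3.88%, with experiments 60 and 72 of run 5 lowest, and single cells reach from 0.940% to 9.20%.

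Across cells the members moved together. Over all cells, after centring on experiment and plate, the median Pearson correlation between 2 members was 0.579 in log2(CPM + 1), and 99.9% of pairs were positive. The mean of 40S members followed the mean of 60S members at r = 0.974. Cells share library, depth and composition, so these values are descriptions without a test. The median lay between 0.442 in experiment 73 and 0.701 in experiments 68 and 72.

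Among the members closest to the mean of the others were Rpl32 (r = 0.843), Rplp2 (0.843), Rps26 (0.841) and Rps16 (0.835). Among the farthest were Rps19bp1 (0.143), which is no subunit, Rpl36al (0.258), Rpl13a (0.441) and Rps27l (0.458). Rpl36al, Rpl13a and Rps19bp1 were also among the 4 lowest levels of the well detected members, but Rps27l did not, at 146.9 CPM. The pairs of near copies had a lower r than these pairs of partners in the ribosome. Rps27 with Rps27l gave r = 0.265, Rpl36a with Rpl36al 0.192 and Rpl22 with Rpl22l1 0.403. The stalk proteins Rplp1 and Rplp2 gave 0.739 and Rpl5 and Rpl11, which travel with 5S RNA, 0.632. Rpl36al (0.258), Rps27l (0.458) and Rpl22l1 (0.618) also followed the mean of the other members less closely than these partners did. For Rpl5, Rpl11, Rplp1 and Rplp2 that r was 0.7255, 0.815, 0.814 and 0.843. Whether near copies differ from other pairs beyond this was not tested.

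The 10 genes outside the members that followed their mean most closely were Fau (r = 0.775) and Rack1 (0.715), both ribosomal proteins, the elongation factor genes Eef1a1 (0.707), Eef1b2 (0.655) and Eef1g (0.652), Pabpc1 (0.646) for poly(A)-binding protein, Npm1 (0.632) of the nucleolus, Gm10076 (0.632), Ppia (0.618) and Tpt1 (0.588). At the other end stood Elmo1 (-0.55), Lrmda (-0.52), Mecom (-0.51), Cacnb2 (-0.49), Ptk2b (-0.49), Lncpint (-0.48), Smyd3 (-0.48), Arid1b (-0.47), Utrn (-0.47) and Dock2 (-0.46). These 10 span 127.8 to 1036 kb of genome each, with a median of 502.5 kb, against 0.384 to 14 kb for the 10 closest genes and a median of 3.24 kb for members. Over 9472 genes the Spearman correlation of genomic span with r was -0.633, and genes are not independent replicates. The part of unspliced RNA in this order was not tested. Gm10076, which sets the lower end of 0.384 kb, shares sequence with the member Rpl41. Of the words of the Rpl41 transcripts, 53.1% also occur in Gm10076. Whether the r of Gm10076 reflects reads of Rpl41 was not tested.

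A score of 17 other genes with TOP messenger RNAs followed the members at r = 0.808, from 0.209 for Eif3l to 0.707 for Eef1a1. Scores of the genes known to regulate this translation (-0.08), of the chaperones of single ribosomal proteins (0.006), of G1/S genes (0.02) and of G2/M genes (0.05) stood near 0, and that of mitochondrial ribosomal proteins reached 0.258. With the cell's total counts and number of detected genes taken out, these became 0.03, 0.115, 0.140, 0.172 and 0.476 in the same order. The score of the regulators was 0.0093 in run 4 and -0.21 in run 5. Among the regulators Rptor stood at -0.33, Mtor at -0.14, Larp1 at -0.04 and Myc at 0.140. The members' mean had r = -0.14 with log2 of the cell's total counts and -0.24 with its number of detected genes, and taking both out left the median correlation between members at 0.575.

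No member passed the test between daughters that received more and those that received fewer lysosomes. For each experiment the counts of all high and of all low daughters were added up, and edgeR's quasi-likelihood test, with the experiment as block, compared the sums. Of 15854 genes tested 0 were called at an adjusted p under 0.05 (0.0%), and 0 of 78 members, of which 2 had an unadjusted p under 0.05, against 658 of all genes (4.15%). DESeq2 called 3 genes (0.0189%), none of them members, with 2 members at an unadjusted p under 0.05 against 5.54% of all genes. The members' log2 differences, high minus low, were small: their median was -0.03, against -0.0008 over all genes. For 72 of 78 members the 95% interval lay within a 1.2-fold difference either way.

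The smallest edgeR p belonged to Rpl9, a protein of the large subunit. Its sums in high daughters were 543.6, 613.4 and 655.8 normalized CPM at the lowest, median and highest of 9 experiments, and 583.7, 629.5 and 762.1 in low daughters. The groups overlap, although high was above low in only 1 of 9 experiments (log2 difference -0.09 ± 0.04 SE, edgeR unadjusted p = 0.0249, adjusted p = 0.999). Rps2, at the entry of the messenger RNA channel, had 868.5, 1054 and 1099 in high and 968.6, 1082 and 1179 in low daughters, again with high above low in 1 of 9 (-0.07 ± 0.03 SE, edgeR unadjusted p = 0.0320, adjusted p = 0.999). Rpl28 (-0.08), Rpl3 of the peptidyl transferase centre (-0.06), Rpl14 (-0.05), Rpl10a (-0.06), Rplp0 (-0.05), Rps12 (-0.06) and Rps20 (-0.06) were among those that followed by unadjusted p, between 0.0871 and 0.169. Rps6, the substrate of S6 kinase, stood at -0.0083 with high above low in 4 of 9 experiments, Rps14 at -0.06 with 2 of 9, Rps19 at -0.0039 with 5 of 9, Rpl5 at -0.05 with 4 of 9 and Rpl11 at -0.04 with 3 of 9.

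The order of these p-values depended on the test and on what it takes as a replicate. For limma, 1 difference in log2(CPM + 1) per division was used without a term for experiment. Its replicates are thus divisions, which share cultures, and not experiments. It called 0 of 76 members and 0 of 11745 genes (0.0%), and 3 members had an unadjusted p under 0.05, against 5.76% of all genes. These were Rps19bp1, which is no subunit and was higher in high daughters (0.508, limma unadjusted p = 0.00134, adjusted p = 0.631), Rpl10a (-0.08, unadjusted p = 0.0272) and Rpl23a (-0.10, unadjusted p = 0.0396). Rpl9 and Rps2 had unadjusted p of 0.0574 and 0.0879 there. The difference was below 0 in 71 of 76 members, against 41.2% of all genes.

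The side of 0 was shared by most members but not by the runs. In 69 of 78 members the difference was below 0, against 50.2% of all genes. Run 5 alone had 73 of 77 below 0 (51.2% of all genes), with a median of -0.07, and run 4 alone had 36 of 78 (49.7% of all genes), with a median of 0.0058. Members rise and fall together across cells, so these counts do not hold 78 separate observations. The difference between runs was tested per gene as an interaction: 0 members were called and 3 of 78 had an unadjusted p under 0.05, against 4.24% of all genes. The share of counts on members averaged 3.64% ± 0.302 (SD, n = 9 experiments) in high and 3.74% ± 0.367 in low daughters. Its log2 difference was -0.03 ± 0.06 (SD, n = 9), above 0 in 4 of 9 experiments, and the high daughter had the larger share in 47.8% of divisions (97 of them).

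**Figure D3:**
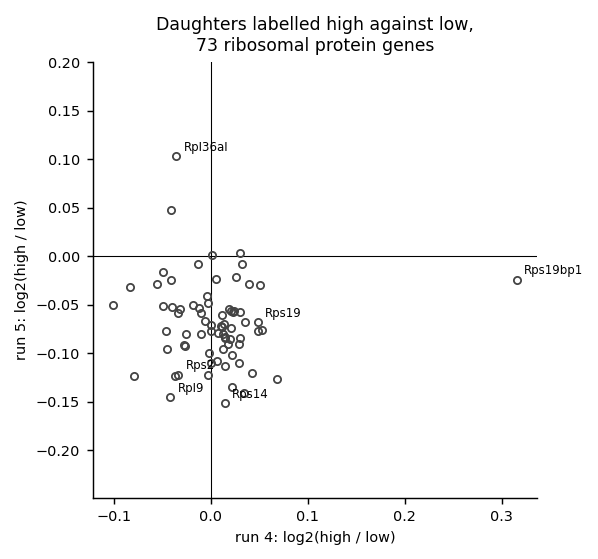
Log2 difference between daughters labelled high and low in run 4 (x axis) and run 5 (y axis) for 73 members with a count in at least 20% of cells, from edgeR fits of each run. Most points lie below 0 on the y axis and on both sides of 0 on the x axis, with Rps19bp1 and Rpl36al apart from the rest.

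Lists that hold members or their partners gave 0 calls as well. The 14 tested of 17 Diamond-Blackfan genes had a median of -0.03, the 4 stalk genes -0.04 and the 2 genes of the 5S particle -0.04. Of the 17 other TOP genes, 15 were below 0 with a median of -0.03, and the smallest unadjusted edgeR p was that of Eif4b (-0.15 ± 0.05 SE, p = 0.00762, adjusted p = 0.999). Rps6kb1, the kinase of Rps6, stood at 0.171 ± 0.06 SE on the log2 scale (edgeR p = 0.00986, adjusted p = 0.999). These lists and the members share cells and move together.

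Between sequencing runs no member was called either. Of 14788 genes 0 were called by edgeR (0.0%) and 36 by DESeq2 (0.243%), with 0 of 77 members under both, and 2 members had an unadjusted edgeR p under 0.05 against 9.14% of all genes. In 56 of 77 members the level was lower in run 5, against 49.4% of all genes, with a median of -0.06. Without experiment 73 of run 5 the count was 68 (50.2% of all genes) and the median -0.15, with 17 members at an unadjusted edgeR p under 0.05 (14.4% of all genes). Leaving out experiment 60 or 72, also of run 5, moved the median the other way, to -0.04 and -0.03, against -0.003 and 0.002 over all genes. Rps9 had the smallest p and was picked after its values were seen. Its experiment medians were 751.0, 766.4 and 801.9 CPM at the lowest, median and highest of 5 experiments of run 4, and 597.7, 617.4, 675.1 and 724.7 in the 4 of run 5. The 2 sets do not overlap, yet the difference missed the threshold (-0.30 ± 0.10 SE on the log2 scale, edgeR unadjusted p = 0.00973, adjusted p = 0.543). Run and experiment cannot be told apart, since each experiment was sequenced in 1 run.

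Sister cells were alike in these genes. Likeness was measured as the intraclass correlation of log2(CPM + 1) within divisions, after centring on experiment and plate, which is 1 when sisters are equal and 0 when they differ as much as unrelated cells do. An F test over the divisions with Benjamini-Hochberg adjustment called 72 of 76 members, where it called 26.4% of 11745 genes. The median intraclass correlation was 0.297 over members and 0.0858 over all genes. The F test takes divisions as independent. Adjacent cells of different divisions, however, had a median correlation of 0.128 in members, against -0.0153 in other genes. Its p-values can therefore be too small for members, also when set beside the 26.4%. The share called and the median both rose with level among other genes. Of 2107 other genes with a median of 100 to 2000 CPM, 41.4% were called with a median of 0.130, against 69 of 70 members and 0.305 in that range. Of 685 other genes at 200 to 1000 CPM, 58.2% were called with a median of 0.193, against 54 of 55 members and 0.299. Members varied less within divisions than other genes at 100 to 2000 CPM, with a median SD of 0.341 against 0.872 on the log2 scale. They also varied less between divisions, at 0.224 against 0.309.

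The highest values were those of Rpsa (0.460), which is also known as a laminin receptor, Rpl3 (0.442), Rplp1 (0.434), Rpl41 (0.417), Rps19 (0.417), Rpl23 (0.415), Rps12 (0.413), Rpl7a (0.398), Rps16 (0.389) and Rps4x (0.389). For Rpsa the 95% interval was 0.343 to 0.563. Over single experiments it ranged from -0.39 to 0.817, with a value above 0 in 7 of 9, while Rplp1 and Rpl41 were above 0 in all 9. The 4 members not called were Rpl23a (0.111), Rpl22 (0.110), Rpl36al (0.107) and Rps19bp1 (0.0275), and Rpl39 was the lowest called, at 0.180. All 31 tested 40S members were called, with a median of 0.318, and 41 of 44 of the 60S, with 0.281. Of the Diamond-Blackfan genes 14 of 14 tested were called, with Rps19 highest and Rpl11 (0.296) and Rpl5 (0.260) lower, and of the stalk Rplp0 (0.375) and Rplp2 (0.257) stood below Rplp1. Rps6 had 0.248 and Rps14 0.240. Of the near copies, Rps27l had 0.356 and Rps27 0.310, Rpl22l1 0.268 where Rpl22 missed the threshold, and Rpl36a 0.321 where Rpl36al missed it. Rpl39l was detected in too few cells to be tested.

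Likeness was not limited to sisters. In all but 2 divisions the sisters sat in adjacent wells of the plate. Over these sister pairs the share of counts on members correlated at 0.379. Over pairs of adjacent wells with cells of different divisions of the same experiment, which were 96.5% as many, it correlated at 0.195. At 2 wells apart it was 0.139. In run 4 sisters gave 0.555 and adjacent cells of different divisions 0.277, and in run 5 0.156 (65 pairs) and 0.0880 (67 pairs). For single members the medians were 0.272 between sisters, 0.128 between adjacent cells of different divisions and 0.0827 at 2 wells, and 72 of 76 members were higher in sisters than in adjacent cells of different divisions. For all other genes tested, the medians were 0.0623, -0.0153 and -0.0160. Neighbouring wells were therefore alike in ribosomal protein genes even where the cells had different mothers, and what neighbouring wells share (time of picking, handling or reagents) was not tested.

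Centring on the column of the plate as well, over 69 columns, lowered the median of the members from 0.297 to 0.184 and the number called from 72 to 40 of 76, while 22.1% of all genes were called and their median was 0.0816. The share of counts fell from 0.40 to 0.219. Rpsa (0.325), Rpl23 (0.322), Rpl3 (0.317), Rpl41 (0.309), Rplp1 (0.308) and Rps19 (0.30) passed the threshold there too. Within run 4, 46 members were called (16.4% of all genes) and within run 5, 3 (9.4%). Rps27l did not fall, with 0.374 against 0.356, and was the highest of all members, while Rps27 had 0.171 (F test over divisions, adjusted p = 0.0565). Rps6 (0.121) and Rps14 no longer passed, and Rps15 went from 0.193 to -0.07.

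**Figure D4:**
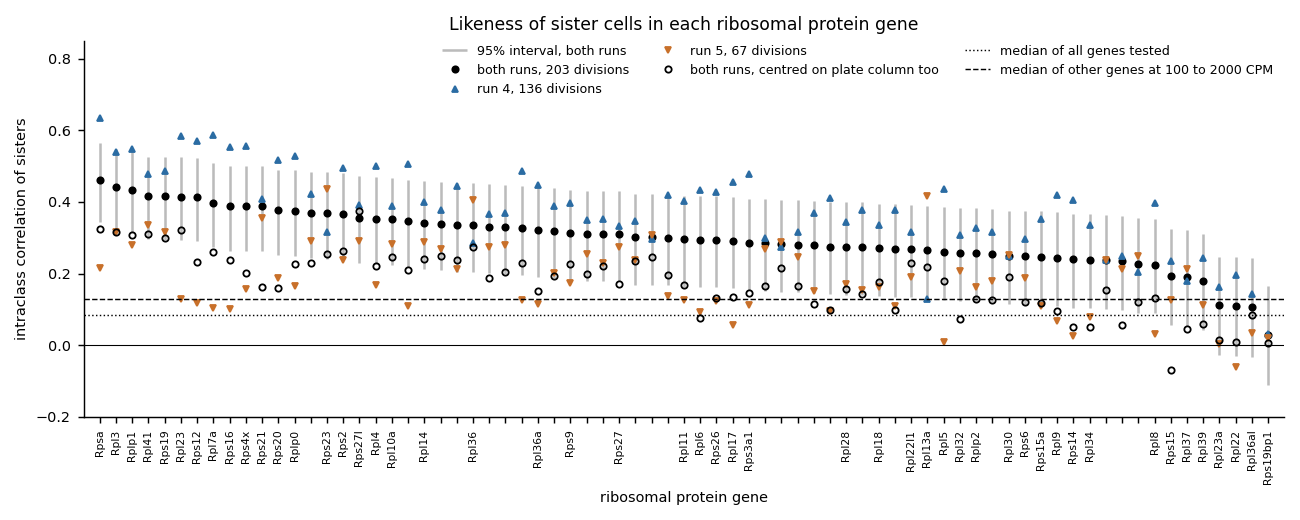
Intraclass correlation between sisters for 73 members with a count in at least 20% of cells, those described in the text named on the axis: both runs (filled circles, grey lines for 95% intervals), run 4 and run 5 alone (triangles), and both runs with the plate column centred out too (open circles), beside the medians of all genes and of other genes of like level (dotted and dashed lines). Filled circles run from 0.460 for Rpsa to 0.0275 for Rps19bp1, most run 4 triangles lie above those of run 5, and most open circles lie below the filled ones.

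More members were called in the larger run. In run 4, 70 of 76 members were called (21.2% of all genes), with a median of 0.383. In run 5, with 67 divisions, 7 of 76 were called, with a median of 0.177. That share of 9.21% lay below the 10.2% of all genes. The 7 were Rpl3, Rpl41, Rps19, Rps21, Rps23, Rpl36 and Rpl13a. Of other genes at 200 to 1000 CPM, 56.4% were called in run 4 and 23.8% in run 5. At 100 to 2000 CPM 15.4% of other genes were called in run 5. Members were thus not called more often than other genes in run 5. Their median at 100 to 2000 CPM was still higher there, at 0.183 against 0.115. The median over all genes was 0.0895 and 0.0878 in these runs. The difference between the runs was not tested. Without experiment 75 of run 4, 60 of 76 members were called (23.3% of all genes), with a median of 0.242. Rpl6, Rps26, Rpl17, Rps3a1, Rps15a, Rpl9, Rps14, Rpl34, Rpl8, Rps15, Rpl37 and Rpl39 were then lost. For the share of counts the value was 0.673 in experiment 75, 0.613 in 77, 0.555 in 74, 0.509 in 60, 0.423 in 69, 0.358 in 76, 0.173 in 72, 0.118 in 68 and -0.05 in 73. With G1/S and G2/M scores taken out 69 of 76 members were called, where the share over all genes fell to 11.5%.

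Partners of the members are set beside the 26.4% of all genes that were called, and their difference from the members was not tested. Among the 17 other TOP genes 11 were called, from Nap1l1, a histone chaperone (0.510), and Eef1a1 (0.458) to Eef1d (0.299), Eef1g (0.263), Eif3f (0.225) and Naca (0.204), while Eif3h (0.0105), Eif3l and Eif4b were not. Rack1 (0.280) and Fau (0.20) were called. Of the 9 regulators 4 were called, Myc (0.314), Mtor (0.311), Larp1 (0.258) and Larp4 (0.240). Of the 4 chaperones tested Tsr2, which carries Rps26, was called (0.317), and not with cell cycle scores taken out. Of 71 mitochondrial ribosomal proteins, 18 were called (median 0.103), a share near that of all genes, and 6 with cell cycle scores taken out. The counts of the TOP genes and of the regulators stayed at 11 and 4 in that setting.

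**Figure D5:**
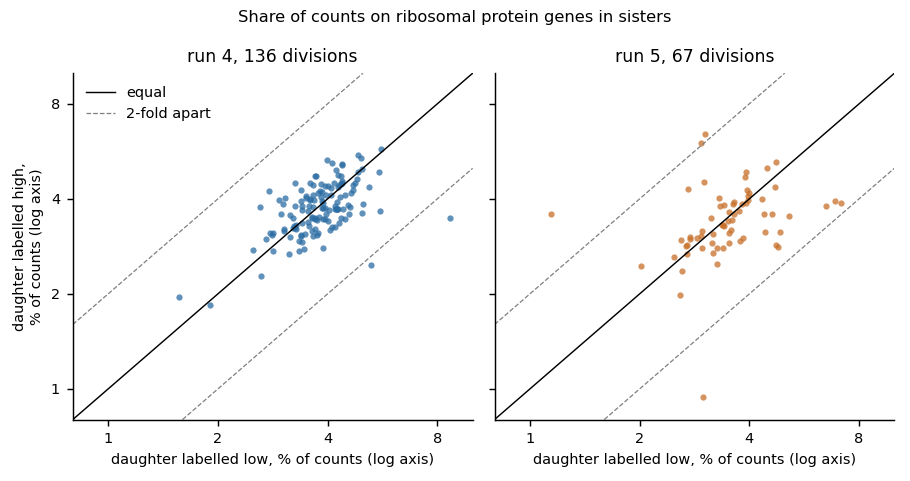
Share of gene counts on the members in the daughter labelled low (x axis) and high (y axis) of each division, in percent on log axes, for run 4 and run 5, with lines for equal shares and for a 2-fold difference. Points scatter on both sides of the line of equal shares, and 6 divisions lie beyond 2-fold.

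A few sisters stood far apart. The median distance between sisters was 0.153 in log2 share, and 6 divisions (2.96%) exceeded 2-fold, 4 in run 5 and 2 in run 4. The high daughter was the lower one in 3 of them and the low daughter in the other 3. Shares were 0.940% and 2.99% in a division of experiment 68, 1.14% and 3.58% in one of 72, 3.48% and 8.68% in one of 75, 3.02% and 6.41% in one of 73, 2.48% and 5.25% in one of 69, and 2.96% and 6.01% in one of 60. In each, 74 to 76 of 76 members lay on the side that the choice of these divisions fixes. The 17 other TOP genes, which the choice did not use, went the same way in 13 to 17 cases, and other genes detected in at least 50% of cells in 37.6% to 55.3%. The daughter with the lower share had 13.9% mitochondrial counts against 1.66% in experiment 69, and 1.21% against 5.01% in experiment 75. The part of RNA quality in these divisions was not tested.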

How the data were processed

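Poly(A) RNA of single daughters was measured by Smart-seq2. The deposited tables hold raw counts of reads per gene, and the authors applied no normalization to them. They were made with featureCounts of Subread 1.5.0 and with SAMtools, per the submitters' processing notes. Not given in the sources used here are aligner, build, strand setting and treatment of multiply matching reads. The deposited metadata hold another kind of value, the authors' labels of experiment, movie, position, colony and lysosome inheritance, from which sisters were joined. Gene identifiers equal those of GENCODE M21 (GRCm38), which supplied symbols, positions, lengths and coding sequences; promoters are from RefSeq (GRCm38.p6). A further 171 count columns of no listed sample were not used. All cells had at least 50000 counts. The reads carry no molecular identifiers and may repeat a molecule, so limits from a count of 0 cover counting error only.

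CPM are counts per 1000000 gene counts, spike-ins left out. Summed counts per experiment and label were tested with edgeR 4.0.16 in R 4.3.3 (TMM, filterByExpr, quasi-likelihood, experiment as block, 1 sum per experiment and label), with DESeq2 1.42.0 and limma 3.58.1 (sister differences) as alternatives; runs were compared on sums per experiment. The threshold was an adjusted p of 0.05 over all genes tested. Intraclass correlations used log2(CPM + 1) of genes with a count in at least 20% of cells. On simulated data the inheritance test (15854 genes) recovered 50 of 100 genes changed by 1 and 55 of 100 changed by 2 on the log2 scale, and the sister test estimated 0.297 for a true 0.3. Python 3.11.15, numpy 2.4.6, pandas 2.3.3, scipy 1.17.1, statsmodels 0.14.6 and matplotlib 3.10.9 were used. Named genes were the 8 highest and 8 lowest levels, the 10 smallest unadjusted p for inheritance, the 10 highest and 5 lowest intraclass correlations, the 5 highest and 5 lowest members and 10 highest and 10 lowest other genes for co-variation, and fixed examples such as Rps6, Rps14, Rps19, Rpl5 and Rpl11. Some genes that these rules name, 3 members among them, are not reported here by name or plotted singly, but counts and medians include them. Members, lists, motifs and rules were chosen with earlier results of these data known.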

Additional observations from a re-analysis of the deposited data

Results flagged for a closer look

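The log2 difference of Rpl28 between high and low daughters was 0.0720 in experiment 77 and between -0.16 and -0.06 in the other 8 experiments, which put that experiment far from the rest. Of 36 sets of 9 experiments looked at in this way this was the only one, and chance gives about 1 in 20.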

How the results depend on the processing

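Inheritance and run gave 0 members called under every alternative run, including each run alone (inheritance), DESeq2 and every experiment left out. The 72 members called in sisters became 7 in run 5 alone and, in alternatives chosen after seeing the data, 40 with the plate column centred out, 46 with it in run 4 and 3 with it in run 5; the other settings gave 69 to 73, and leaving out 1 experiment at a time 60 to 72. The background is 10.2% of all genes for 7, 22.1% for 40, 16.4% for 46 and 9.4% for 3. Over the other settings it ran from 11.5% with cell cycle scores out to 32.9% with ranks of CPM within experiment and plate. Leaving out 1 experiment at a time gave 22.59% to 26.96% of all genes. The 73 is of 79 members tested with like-named pseudogenes added (92.4%), a lower share than 72 of 76 (94.7%). The median level of 205.8 CPM per kilobase became 346.1 with the longest transcript and 515.1 with the principal one, whose length was chosen after seeing the data. In run 4 alone the log2 difference turned above 0 for Rps6 (0.0053), Rps14 (0.0142), Rps19 (0.0486) and Rpl5 (0.0063); leaving out 1 experiment gave -0.0171 to 0.0028 for Rps6 and -0.0281 to 0.0149 for Rps19. The intraclass correlation turned below 0 for Rpl22 in run 5 (-0.0603), for Rps19bp1 with cell cycle scores out (-0.0217) and on leaving out 1 experiment (-0.0252 to 0.0599), and in run 5 with the plate column out for Rps12 (-0.11), Rps16 (-0.16), Rpl39 (-0.0465), Rpl23a (-0.0602), Rpl22 (-0.102), Rps19bp1 (-0.19), Rps14 (-0.11) and Rpl11 (-0.0477). The cause was not tested. Low counts limit what can be said of Rpl36al (median 4.86 CPM) and of the members counted in under 20% of cells. The part of depth in these low counts was not tested. The edgeR and DESeq2 tests of inheritance paired the sums of 1 experiment as a block, and limma paired sisters within divisions.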
